A study of Mustela putorius furo with 20 samples.

Results

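The transmembrane semaphorins, the plexins, the Eph receptors and the ephrins were followed through the outer subventricular zone (oSVZ), the outer germinal layer of the folding cortex, of the young ferret. Members were taken by symbol, as every SEMA4 to SEMA7, PLXN, EPH and EFN gene of the count table together with *PLXDC1* and *PLXDC2*. This gave 44 of 32,057 genes, namely 13 semaphorins, 8 plexins, 2 PLXDC genes, 14 Eph receptors and 7 ephrins. Of these, 37 had enough reads to test, among 12,669 tested genes. The name of the group covers most but not all of them, since *SEMA7A* and the A-type ephrins encode proteins held on the membrane by a lipid anchor, and *PLXDC1* and *PLXDC2* encode plexin-domain proteins that are not plexins. *PLXNC1* and *EFNA2* were not analysed here.

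RNA was sequenced from the oSVZ under the coronal gyrus (CG) and under the suprasylvian sulcus (SSS) of the left hemisphere, in ferret kits at postnatal day 15 (P15) and postnatal day 5 (P5), when folding is under way and at its onset. The 4 groups were the P15 CG, the P15 SSS, the P5 CG and the P5 SSS, with 5 libraries in each. The kits came from a private supplier, the labels give no treatment or altered genotype for any group, both sexes were used and sex was not modelled. The CG and SSS libraries of an animal come from the same brain, whereas the ages are different animals, numbered 1 to 5 within each age. Each library pools the oSVZ of 50 consecutive coronal sections, captured by laser on Nissl-stained tissue, so it mixes all cells of that tissue. In such bulk tissue, fewer cells of a type and less RNA per cell cannot be told apart.

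These families carry signals between neighbouring cells. Semaphorins bind plexins, whose cytoplasmic domain acts on small GTPases and so on the cytoskeleton, while ephrins bind Eph receptor tyrosine kinases and can signal back into the cell that bears them. In the developing cortex they are known for guiding axons, for setting boundaries and for the migration of neurons, and several act in progenitors and in the oligodendrocyte lineage.

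Libraries held 2,488,477 to 4,277,326 reads assigned to genes. According to the authors' quality records most reads were not assigned to genes, and RNA integrity varied between libraries, also within an animal. Neither was modelled here. Levels below are CPM, read counts set to 1 common library total after TMM scaling, and are not divided by transcript length, so levels of different genes are not compared. The P15 SSS library of animal 4 stood apart, with the fewest assigned reads and no read for 1371 tested genes, against 49 to 825 in the other 19 libraries. Results that turn on it are given without it. Marker lists were read beside the members. Of 13 listed radial glia genes 10 were in the count table, and all 10 passed the filter. Their summed levels were 7069 to 10589 CPM in the P15 libraries and 6894 to 11599 CPM in the P5 libraries. Passing the filter does not measure the share of such cells in the tissue.

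The first question was which members changed between the ages within a region. In the CG 9 of 37 tested members passed an FDR of 0.05 (24.3%, edgeR's quasi-likelihood test with Benjamini-Hochberg adjustment), against 13.1% of all tested genes. Of these, 5 were higher at P15, where 7.39% of all genes were, and 4 were lower, where 5.72% were. In the SSS 12 of 37 members passed (32.4%), against 14.6% of all genes, with 5 higher (8.19% of all genes) and 7 lower (6.46%). The genes called in the CG and the SSS shared 8 members, which is 88.9% of the CG calls and 66.7% of the SSS calls, but the 2 regions come from the same animals. A test of the difference between the regions' age changes passed for none of the 37 members (edgeR). The median log2 fold change of the tested members was -0.25 in the CG and -0.11 in the SSS, beside -0.011 and -0.014 over all genes. At an unadjusted p under 0.05 the counts were 20 in the CG (54.1%, against 25.5% of all genes) and 19 in the SSS (51.4%, against 27.3%).

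The calls were divided by family. All 4 semaphorin calls in the CG and all 3 in the SSS were higher at P15, and they lay in the class 5 and class 6 genes. None of the 6 tested class 4 semaphorins was called in either region. Plexin calls were lower at P15, 1 of 8 in the CG and 2 of 8 in the SSS. Eph receptors had 2 lower calls of 10 in the CG, and 4 lower and 1 higher in the SSS. Of 4 tested ephrins 1 was lower in both regions. Of all tested genes 13.1% passed for the CG, 7.39% rising and 5.72% falling with age. For the SSS 14.6% passed, 8.19% rising and 6.46% falling. No family count was tested against these shares, and several rest on 1 or 2 genes. Summed levels of the Eph receptors were 536 ± 107.6 CPM in the P15 CG and 605 ± 123 CPM in the P15 SSS, against 1611 ± 231 CPM in the P5 CG and 1841 ± 285 CPM in the P5 SSS (mean ± SD, n = 5, here and below). Those of the semaphorins were 1356 ± 315 and 1370 ± 354 CPM at P15, against 657 ± 106 and 871 ± 118 CPM at P5, in the CG and the SSS in that order. Such sums are weighted towards the genes with the most reads.

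**Figure D1:**
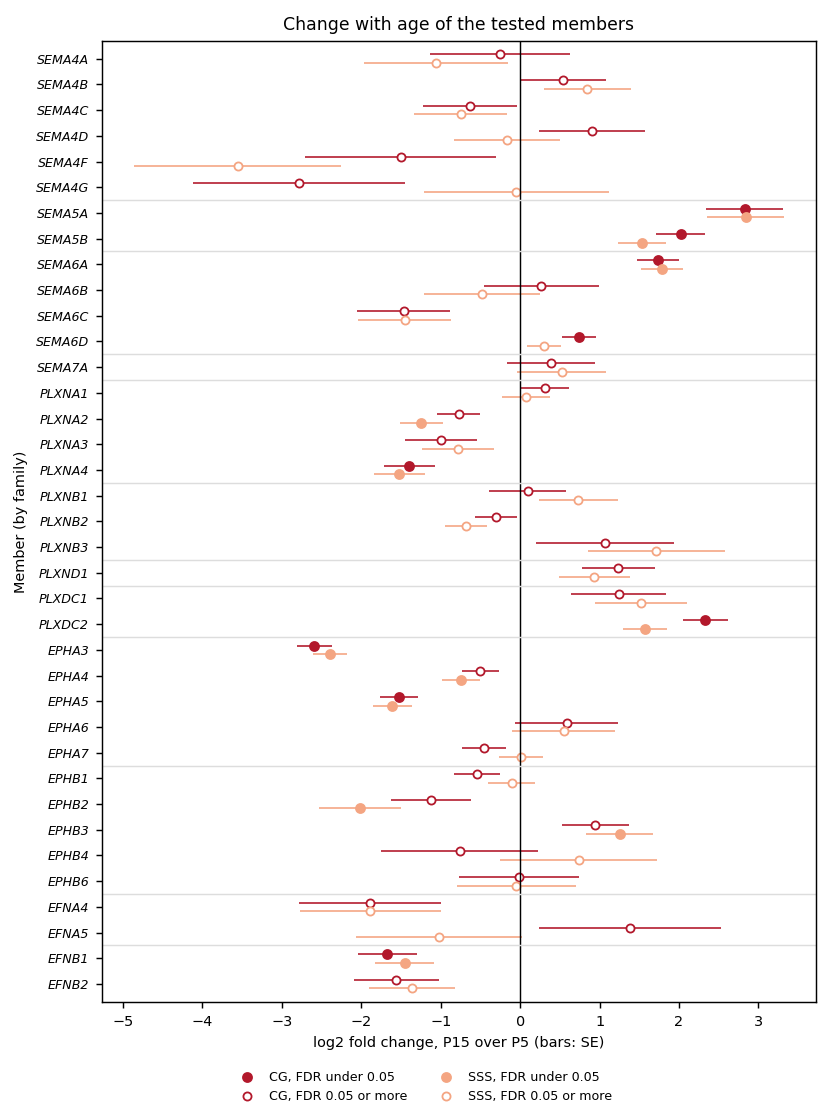
Log2 fold change of P15 over P5 (x axis, points, with SE as bars) of the 37 tested members, listed by family on the y axis, in the CG (red) and the SSS (orange); filled points have an FDR under 0.05. Filled points lie to the right for class 5 and class 6 semaphorins and *PLXDC2*, and to the left for plexins, A-type Eph receptors, *EPHB2* and *EFNB1*, while *EPHB3* lies to the right in the SSS.

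Among the ligands, both class 5 semaphorins were higher at P15. *SEMA5A* (ENSMPUG00000011293) encodes a semaphorin with thrombospondin repeats that in mouse acts on growing axons. It had 69.8, 103, 58.1, 40.4 and 38.9 CPM in the P15 CG (animals 1 to 5), against 5.21, 11.4, 13.7, 4.64 and 8.53 CPM in the P5 CG. In the P15 SSS it had 83.1, 83.3, 116, 17.6 and 62.5 CPM, against 3.58, 6.52, 23.3, 2.89 and 13.2 CPM in the P5 SSS. The CG groups did not overlap, whereas in the SSS the P15 library of animal 4, the lowest at that age, lay below the P5 library of animal 3. The gene rose 7.09-fold in the CG (log2 fold change 2.83, SE 0.485, FDR = 1.06e-04) and 7.16-fold in the SSS (log2 fold change 2.84, SE 0.481, FDR = 8.56e-05). Without P5 animal 3 the SSS value was 3.44, and without the P15 SSS library of animal 4 it was 3.08.

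*SEMA5B* (ENSMPUG00000004590), the other class 5 gene and the one with most reads of the pair, had 241, 292, 237, 380.2 and 179 CPM in the P15 CG, against 96.3, 69.3, 70.6, 33.6 and 57.5 CPM in the P5 CG. It had 197, 256, 243, 149 and 256 CPM in the P15 SSS and 111, 128, 75.9, 31.8 and 34.9 CPM in the P5 SSS. Every P15 library lay above every P5 library of its region. *SEMA5B* rose in both regions (CG, log2 fold change 2.02, SE 0.309, FDR = 2.12e-05; SSS, log2 fold change 1.53, SE 0.305, FDR = 6.48e-04).

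*SEMA6A* (ENSMPUG00000000806) encodes a class 6 semaphorin, a ligand of the plexins A2 and A4. Its level was 199.8, 347, 354, 189 and 154 CPM in the P15 CG, against 79.3, 61.5, 85.2, 52.5 and 95.8 CPM in the P5 CG. In the SSS it was 240.3, 282, 389.9, 199 and 158 CPM at P15 and 95.6, 45.6, 84.4, 61.8 and 79.7 CPM at P5. The groups were separate in both regions, and *SEMA6A* rose 3.33-fold in the CG (log2 fold change 1.73, SE 0.26, FDR = 1.6e-05) and 3.45-fold in the SSS (log2 fold change 1.79, SE 0.261, FDR = 9.95e-06).

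*SEMA6D* (ENSMPUG00000011169), whose product binds plexin A1 in chick and mouse, had the most reads of the class 6 genes. It had 558, 903, 895, 578 and 564 CPM in the P15 CG and 334, 342, 557, 465 and 393 CPM in the P5 CG, a narrow gap between its lowest P15 library and its highest P5 library. In the SSS the level was 553, 770.3, 1113, 729 and 573 CPM at P15 and 424, 486, 675, 763 and 689 CPM at P5, and these groups overlapped. The change passed in the CG (log2 fold change 0.74, SE 0.211, FDR = 0.0166), where it was lost without P15 animal 2 (FDR = 0.0543, edgeR). In the SSS the fit gave log2 fold change 0.30, SE 0.21, FDR = 0.383.

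The remaining ligands of the semaphorin side did not pass in either region. *SEMA6C* had log2 fold changes of -1.47 (FDR = 0.10, edgeR) in the CG and -1.45 (FDR = 0.0948) in the SSS, and *SEMA6B* had 0.27 and -0.48. *SEMA4B*, the class 4 gene with the most reads, had 19.7, 18, 14.4, 37.4 and 14.9 CPM in the P15 CG and 25.3, 30.8, 20.1, 1.35 and 16.5 CPM in the P15 SSS. At P5 it had 5.91, 23.7, 27.1, 4.64 and 10.1 CPM in the CG and 10.7, 12.4, 10.9, 5.79 and 12.6 CPM in the SSS. Its groups overlapped (CG, log2 fold change 0.54, SE 0.539, FDR = 0.59; SSS, log2 fold change 0.84, SE 0.545, FDR = 0.336). Log2 fold changes of *SEMA4A*, *SEMA4C*, *SEMA4D*, *SEMA4F* and *SEMA4G* ranged from -2.78 to 0.90 in the CG and from -3.56 to -0.051 in the SSS. *SEMA4F* and *SEMA4G* had no read in several libraries, and their estimates carried SE of 1.17 to 1.34.

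*SEMA7A*, which encodes a lipid-anchored semaphorin that binds integrins and plexin C1, had 31.3, 8.82, 24.6, 14.5 and 7.27 CPM in the P15 CG, against 21.2, 10.2, 17, 3.77 and 14.2 CPM in the P5 CG. SSS libraries had 32.2, 12.2, 15.5, 1.35 and 11.1 CPM at P15 and 11.5, 7.21, 11.2, 11.2 and 9.63 CPM at P5. The groups overlapped in both regions (CG, log2 fold change 0.39, SE 0.553, FDR = 0.728; SSS, log2 fold change 0.52, SE 0.557, FDR = 0.60).

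**Figure D2:**
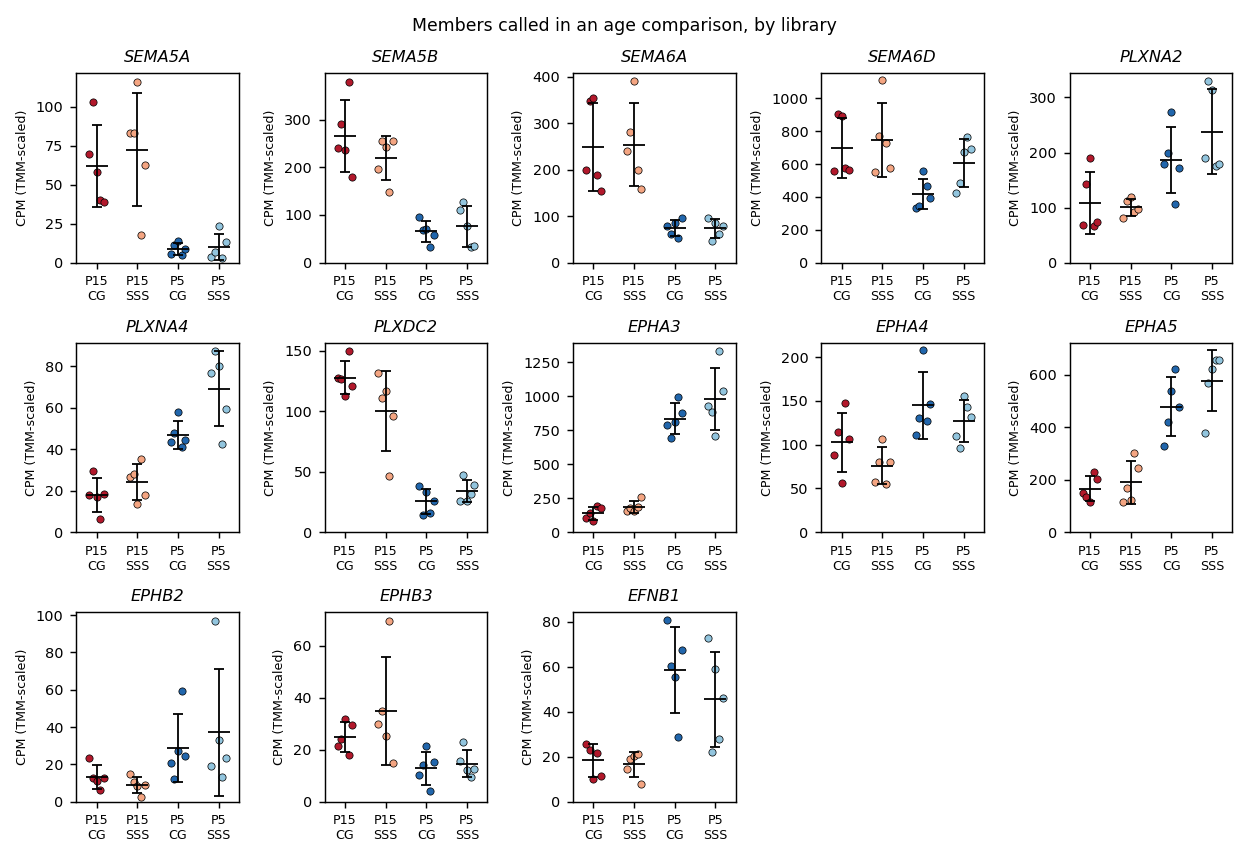
Level of the 13 members called in at least 1 age comparison, in TMM-scaled CPM on a linear axis from 0 (y axis), in the P15 CG, P15 SSS, P5 CG and P5 SSS (x axis). Points are the 5 libraries of a group in the order of animals 1 to 5, and the bar is the mean ± SD. *EPHA3* had 83 to 259 CPM in the P15 libraries and 693 to 1331 CPM in the P5 libraries, whereas *EPHA4* and *EPHB3* overlapped between ages.

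On the receptor side of the semaphorins, the plexin calls were the A-type genes *PLXNA2* and *PLXNA4*, which encode receptors of *SEMA6A*. *PLXNA4* (ENSMPUG00000004437), which also pairs with neuropilin 1 as a receptor of secreted semaphorin 3A, had 17.8, 29.4, 17, 6.1 and 18.5 CPM in the P15 CG, against 43.4, 47.7, 57.8, 40.9 and 44.2 CPM in the P5 CG. Its SSS values were 26.4, 28.1, 13.6, 35.2 and 17.8 CPM at P15 and 76.6, 87.2, 80.2, 42.7 and 59.6 CPM at P5. All P15 libraries lay below all P5 libraries of the same region, and *PLXNA4* fell in both (CG, log2 fold change -1.39, SE 0.327, FDR = 0.00356; SSS, log2 fold change -1.52, SE 0.325, FDR = 0.00139).

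*PLXNA2* (ENSMPUG00000002963), the A-type plexin with the most reads, had 68.5, 142, 191, 66.7 and 73.8 CPM in the P15 CG and 178, 199, 274, 107 and 172 CPM in the P5 CG, with overlap. Its values in the SSS were 81.3, 112, 118, 92.5 and 97.5 CPM at P15 and 189, 330.2, 314, 176 and 179.6 CPM at P5, without overlap. It fell in the SSS (log2 fold change -1.25, SE 0.273, FDR = 0.0018), and the CG value missed the threshold (log2 fold change -0.78, SE 0.27, FDR = 0.054). The regions' age changes were not shown to differ, since the test of that difference gave 0.35 on the log2 scale (SE 0.241, FDR = 0.998).

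No other plexin passed. *PLXNA3* had log2 fold changes of -1.0 in the CG (FDR = 0.151, edgeR) and -0.78 in the SSS, and *PLXNA1* had 0.31 and 0.076. *PLXNB2*, the B-type plexin with the most reads and a receptor of class 4 semaphorins, had 67.5, 58.8, 82.3, 64.1 and 50.9 CPM in the P15 CG and 81, 58.2, 44.8, 78.6 and 54.5 CPM in the P15 SSS. It had 98, 116, 93, 35.1 and 57.8 CPM in the P5 CG and 119.9, 71.7, 132, 99.1 and 84.8 CPM in the P5 SSS. These ranges overlapped between ages (CG, log2 fold change -0.30, SE 0.263, FDR = 0.523; SSS, log2 fold change -0.68, SE 0.263, FDR = 0.0815). *PLXNB1* and *PLXNB3* had log2 fold changes of 0.092 and 1.07 in the CG and of 0.73 and 1.71 in the SSS, with SE of 0.483 to 0.871.

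*PLXND1* encodes the receptor of secreted semaphorin 3E. It had 75.4, 43.1, 40.5, 26.7 and 35.6 CPM in the P15 CG and 66.1, 39, 83.1, 43.8 and 38.7 CPM in the P15 SSS, against 18.4, 12.3, 24.9, 6.67 and 31.6 CPM in the P5 CG and 2.86, 47.7, 29, 44.1 and 18.3 CPM in the P5 SSS. The ages overlapped in both regions, and neither value passed (CG, log2 fold change 1.24, SE 0.456, FDR = 0.0704; SSS, log2 fold change 0.93, SE 0.449, FDR = 0.173).

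*PLXDC2* (ENSMPUG00000011936) encodes a membrane protein with a plexin-like domain that in mouse acts on the division of neural progenitors. It had 127, 127, 113, 149.9 and 121 CPM in the P15 CG, against 38.2, 14.1, 32.9, 15.9 and 25.6 CPM in the P5 CG. In the SSS it had 132, 111, 117, 46 and 95.8 CPM at P15 and 26.1, 47.4, 25.5, 31.5 and 38.8 CPM at P5, where only the P15 library of animal 4 reached into the P5 range. It rose 5.03-fold in the CG (log2 fold change 2.33, SE 0.287, FDR = 5.75e-07) and 2.97-fold in the SSS (log2 fold change 1.57, SE 0.28, FDR = 1.66e-04). Without that library the SSS value was 1.75 (FDR = 1.26e-05, edgeR). *PLXDC1*, first known from tumour vessels in human, had 17.4, 5.23, 7.91, 6.48 and 7.64 CPM in the P15 CG and 3.48, 6.0, 1.4, 2.32 and 5.69 CPM in the P5 CG. In the SSS it had 23.3, 24.5, 23.6, 48.3 and 6.05 CPM at P15 and 10.4, 16.1, 11.7, 2.89 and 2.41 CPM at P5. The ages overlapped and neither value passed (CG, log2 fold change 1.24, SE 0.601, FDR = 0.186; SSS, log2 fold change 1.52, SE 0.582, FDR = 0.0766).

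Among the Eph receptors, *EPHA3* (ENSMPUG00000008263), which encodes a receptor of A-type ephrins, had the lowest p of all members in both regions. It had 101, 138, 83, 191 and 179.6 CPM in the P15 CG, against 789, 693, 814, 997 and 879 CPM in the P5 CG. SSS libraries had 154, 176, 157, 186 and 259 CPM at P15 and 930.2, 886, 711, 1331 and 1041 CPM at P5. The highest P15 library of either region lay below every P5 library. *EPHA3* fell 6.03-fold in the CG (log2 fold change -2.59, SE 0.219, FDR = 5.63e-10) and 5.26-fold in the SSS (log2 fold change -2.40, SE 0.217, FDR = 2.09e-09).

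*EPHA5* (ENSMPUG00000001506), a receptor of the same ephrins that is known for axon mapping, had 148, 136, 115, 228 and 203 CPM in the P15 CG and 327, 421, 538, 623 and 478 CPM in the P5 CG. Its SSS levels were 113, 168, 122, 301 and 243 CPM at P15 and 378, 569.7, 623, 655 and 656 CPM at P5. The ages were separate in both regions, and *EPHA5* fell (CG, log2 fold change -1.53, SE 0.244, FDR = 4.18e-05; SSS, log2 fold change -1.61, SE 0.245, FDR = 1.96e-05). *EPHA4* (ENSMPUG00000016672), whose product binds ephrins of both types, had 88.5, 114, 56.5, 147 and 107 CPM in the P15 CG and 111, 131, 209, 128 and 147 CPM in the P5 CG. In the SSS it had 57.8, 80.7, 107, 54.6 and 79.7 CPM at P15 and 110.3, 95.8, 156, 144 and 131 CPM at P5. Its ages overlapped in both regions. It passed in the SSS alone (log2 fold change -0.74, SE 0.237, FDR = 0.0313; CG, log2 fold change -0.50, SE 0.236, FDR = 0.173), and that call was lost under 10 of 21 alternatives, with an FDR of up to 0.0829. Without the P15 SSS library of animal 4 the SSS value was -0.65 (FDR = 0.0728, edgeR).

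*EPHA6* and *EPHA7* did not pass, with log2 fold changes of 0.58 and -0.46 in the CG and of 0.55 and 0.011 in the SSS. Of the B-type receptors, *EPHB2* (ENSMPUG00000015942), a receptor of B-type ephrins that in mouse takes part in commissure formation, had 23.4, 12.7, 10.9, 6.1 and 12.7 CPM in the P15 CG and 20.9, 12, 27.4, 59.5 and 24.3 CPM in the P5 CG. The SSS values were 14.7, 10.6, 8.42, 2.71 and 9.08 CPM at P15 and 19.3, 96.8, 33.1, 13.4 and 23.5 CPM at P5. The P5 SSS library of animal 2 stood far above its group, and the ages overlapped by the lowest P5 library. *EPHB2* fell in the SSS (log2 fold change -2.02, SE 0.515, FDR = 0.0068), but without P5 animal 2 the value was -1.25 and the call was lost (FDR = 0.0811, edgeR). In the CG the fit gave log2 fold change -1.13, SE 0.501, FDR = 0.144.

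*EPHB3* (ENSMPUG00000002868), which acts with *EPHB2* in mouse, was the one Eph receptor called higher at P15. It had 21.4, 24.2, 31.6, 17.9 and 29.5 CPM in the P15 CG and 10.1, 14.1, 21.2, 4.06 and 15.2 CPM in the P5 CG. SSS levels were 29.9, 34.7, 25.3, 69.5 and 14.8 CPM at P15, the highest being animal 4, and 15.8, 23, 12.1, 9.4 and 12.6 CPM at P5. The ages overlapped in both regions. The SSS value passed (log2 fold change 1.25, SE 0.419, FDR = 0.0405; CG, log2 fold change 0.95, SE 0.418, FDR = 0.142), and without the P15 SSS library of animal 4 it was 0.84 and did not pass (FDR = 0.171, edgeR). The call was lost under 11 of 21 alternatives.

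*EPHB1*, the B-type receptor with the most reads and known from retinal axons in mouse, had 28.3, 28.1, 45.3, 39.7 and 20.001 CPM in the P15 CG and 32.5, 31.8, 32.3, 74 and 44.4 CPM in the P15 SSS. At P5 it had 47.3, 39.6, 61.7, 41.2 and 45.8 CPM in the CG and 32.2, 44.3, 58.8, 34.4 and 60.8 CPM in the SSS. Its ages overlapped (CG, log2 fold change -0.54, SE 0.294, FDR = 0.251; SSS, log2 fold change -0.11, SE 0.293, FDR = 0.861). *EPHB4*, which pairs with ephrin B2 in vessels, and *EPHB6*, whose kinase domain is inactive, did not pass, with log2 fold changes of -0.76 and -0.012 in the CG and of 0.74 and -0.049 in the SSS.

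Among the ephrins, *EFNB1* (ENSMPUG00000004559), which encodes the transmembrane ephrin B1 and in mouse acts in cortical progenitors, had 25.7, 23.2, 9.998, 21.7 and 11.3 CPM in the P15 CG, against 80.6, 60.3, 55.6, 28.7 and 67.3 CPM in the P5 CG. Levels in the SSS were 14.4, 19.2, 20.4, 21.2 and 8.07 CPM at P15 and 73, 22, 59, 27.8 and 46 CPM at P5. The ages did not overlap in either region, with a narrow gap in the SSS, and *EFNB1* fell in both (CG, log2 fold change -1.67, SE 0.368, FDR = 0.00192; SSS, log2 fold change -1.45, SE 0.368, FDR = 0.00639). *EFNB2* had log2 fold changes of -1.56 (SE 0.537, FDR = 0.0503, edgeR) in the CG and -1.36 (SE 0.541, FDR = 0.0905) in the SSS, which missed the threshold.

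The A-type ephrins had few reads. *EFNA4*, the A-type ephrin with the most, had 3.95, 1.63, 0.233, 0.381 and 1.09 CPM in the P15 CG and 1.44, 1.65, 3.26, 0.903 and 0.673 CPM in the P15 SSS. At P5 it had 3.48, 2.7, 14.5, 2.9 and 3.79 CPM in the CG and 2.51, 12.4, 9.04, 1.81 and 4.51 CPM in the SSS. The ages overlapped, and the values were log2 fold change -1.89, SE 0.894, FDR = 0.168 in the CG and log2 fold change -1.89, SE 0.888, FDR = 0.155 in the SSS. *EFNA5*, a ligand of *EPHA3* and *EPHA5*, had log2 fold changes of 1.38 (SE 1.15) in the CG and -1.02 (SE 1.04) in the SSS. The other 7 members, *EPHA1*, *EPHA2*, *EPHA8*, *EPHA10*, *EFNA1*, *EFNA3* and *EFNB3*, had 7 to 112 reads over all 20 libraries and were not tested.

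Marker lists of other cells moved with age beside these changes. For all tested genes the shares were 7.39% higher and 5.72% lower at P15 in the CG, and 8.19% and 6.46% in the SSS. Of 10 tested genes of intermediate progenitors and newborn excitatory neurons, 9 were lower at P15 in the CG and 10 in the SSS. Their summed levels were 233 to 301 and 258 to 399 CPM in the P15 CG and P15 SSS, against 1005 to 1642 and 1108 to 1917 CPM in the P5 CG and P5 SSS. Of 9 astrocyte genes 8 were higher in both regions, with 4805 to 8521 and 5175 to 7905 CPM at P15 against 1159 to 1592 and 817 to 1411 CPM at P5. Oligodendrocyte genes moved the same way, with 4 of 5 precursor genes and 7 of 7 myelin genes higher in both regions. The precursor genes summed to 859 to 1677 CPM in the P15 libraries and 192 to 496 CPM in the P5 libraries, and the myelin genes to 657 to 3886 CPM and 72.0 to 203 CPM. The part of these cell types in the changes of the members was not tested.

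Microglial genes were higher for 5 of 9 in the CG and 6 of 9 in the SSS, with sums of 259 to 580 CPM at P15 and 59.8 to 138 CPM at P5. Of 10 endothelial genes 2 were higher in the CG and 3 in the SSS, with sums of 339 to 531 CPM at P15 and 117 to 386 CPM at P5. Radial glia genes were split, 4 of 10 being higher and 1 lower in both regions, and of 9 genes of proliferating cells 3 were lower in the CG and 1 in the SSS. Interneuron genes had 2 of 9 higher in both regions, with 4 lower in the CG and 3 in the SSS. Of 6 genes of neurons in general 3 were lower in the CG and 2 in the SSS, of 4 ependymal and choroid plexus genes 1 was higher in each region, and of 8 mural and fibroblast genes 1 was higher in the SSS. Beside these counts, 7.39% of all tested genes were higher and 5.72% lower at P15 in the CG, and 8.19% and 6.46% in the SSS. The part of these cell types was not tested either.

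The partners of these families were taken from lists of their known members. Their counts stand beside 7.39% of all tested genes higher and 5.72% lower at P15 in the CG, and 8.19% and 6.46% in the SSS. Of 6 tested secreted class 3 semaphorins 2 were higher and 2 lower at P15 in the CG, and 1 higher and 2 lower in the SSS. *SEMA3C* averaged 38.7 CPM in the P15 CG and 57.8 CPM in the P15 SSS, against 789 and 772 CPM in the P5 CG and P5 SSS. It fell in both regions (CG, log2 fold change -4.35, SE 0.232, FDR = 1.82e-14; SSS, log2 fold change -3.74, SE 0.225, FDR = 4.86e-13). *SEMA3E*, the ligand of *PLXND1*, rose (CG, log2 fold change 3.39, SE 0.392, FDR = 1.79e-07; SSS, log2 fold change 3.57, SE 0.392, FDR = 6.7e-08), where *PLXND1* itself did not pass. Of 13 co-receptors and other semaphorin receptors, 5 were higher and 2 lower in the CG, and 6 higher and 2 lower in the SSS. Some of those called higher are also in the microglial or endothelial marker lists, so these counts are not independent of theirs.

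Among them *NRP2*, a receptor of class 3 semaphorins, rose to 27.8 and 29.6 CPM in the P15 CG and P15 SSS, against 4.37 and 4.55 CPM in the P5 CG and P5 SSS (CG, log2 fold change 2.67, SE 0.421, FDR = 3.2e-05; SSS, log2 fold change 2.69, SE 0.421, FDR = 2.75e-05). *NRP1*, the neuropilin that pairs with *PLXNA4* and is named here with its values known, fell (CG, log2 fold change -1.05, SE 0.304, FDR = 0.0187; SSS, log2 fold change -0.97, SE 0.304, FDR = 0.0282). *TYROBP*, the adaptor of TREM2, which can join plexin A1, and also a microglial marker, rose (CG, log2 fold change 2.09, SE 0.331, FDR = 3.68e-05; SSS, log2 fold change 2.18, SE 0.339, FDR = 2.53e-05). Of 27 plexin effectors 4 were higher and 3 lower in the CG, and 1 higher and 5 lower in the SSS. Of 36 Eph and ephrin effectors 3 rose in the CG, 4 rose in the SSS and no gene passed as lower in either region. *FYN* is in both effector lists and passed as higher in both regions. Among all tested genes 7.39% were higher and 5.72% lower in the CG, and 8.19% and 6.46% in the SSS. The effector counts were not tested against these shares.

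The second question was whether members differed between the CG and the SSS of the same animal. At P15 no member passed, where 0.0158% of all genes did, and at P5 none did, where 0.0395% did (edgeR with the animal as a block). At P15 2 of 37 members (5.41%) had an unadjusted p under 0.05, against 3.72% of all genes. At P5 there were 4 (10.8%), against 8.03% of all genes. DESeq2, limma-voom and edgeR's newer quasi-likelihood called no member at P15 and 1 each at P5, which was *SEMA6D*. The median log2 fold change of the members was -0.18 at P5, with 24 of 37 below 0, and -0.0054 at P15, with 19 of 37 below 0, beside 0.016 and 0.033 over all genes. Of all 12,669 tested genes 6141 were below 0 at P5 and 5826 at P15.

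At P5 4 of 37 members (10.8%) had less RNA in the CG in 5 of 5 animals, and none was higher in all 5, where 9.24% of all genes differed in 1 direction in all animals. They were *SEMA6D*, *EPHA5*, *PLXNA2* and *PLXNA4*. *SEMA6D*, with 418 ± 93.4 CPM in the P5 CG and 607 ± 145 CPM in the P5 SSS, had the lowest p (log2 fold change -0.53, SE 0.111, FDR = 0.0673). That value did not pass in 15 of 21 alternatives, among them every fit that left out a P5 animal. It passed without the P15 SSS library of animal 4 (FDR = 0.0169, edgeR) and in 5 other alternatives (FDR of 0.00202 to 0.0351). That library is not part of the P5 comparison, but all 20 libraries were in 1 fit. *EPHA5* averaged 477 ± 113 CPM in the P5 CG and 577 ± 116 CPM in the P5 SSS (log2 fold change -0.28, SE 0.121, FDR = 0.559), and *PLXNA2* 186 ± 59.8 and 238 ± 77.3 CPM (log2 fold change -0.36, SE 0.168, FDR = 0.60). For *PLXNA4* the values were 46.8 ± 6.6 CPM in the CG and 69.2 ± 18 CPM in the SSS (log2 fold change -0.53, SE 0.309, FDR = 0.698).

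Next by p at P5, after *SEMA6D* and *EPHA5*, was *EFNA5*, which encodes ephrin A5 and had 0, 1.8, 0.558, 0.87 and 0 CPM in the P5 CG, against 6.44, 6.52, 11.7, 0.362 and 1.5 CPM in the P5 SSS. The CG library of the pair was the lower one in 4 of 5 kits (log2 fold change -2.94, SE 1.43, FDR = 0.59), at 11 reads over the 5 CG libraries and 92 over the 5 SSS libraries. At P15 it had 0.658, 0.327, 2.33, 1.91 and 3.64 CPM in the CG and 3.16, 7.28, 0.815, 0 and 1.68 CPM in the SSS, which overlapped. In the P5 tissue 6528 of 12,669 tested genes had a positive CG over SSS value, and 0.0395% passed. That value was positive for 9 of 10 radial glia genes, 9 of 9 genes of proliferating cells and 8 of 9 astrocyte genes. Of the radial glia genes 1 passed. Genes of a list were measured in the same animals, so such counts are not independent. The value was positive for 1 of 5 genes of oligodendrocyte precursors, of which 1 passed as lower in the CG, and for 1 of 7 myelin genes, of which none passed. For intermediate progenitors and newborn excitatory neurons it was positive for 3 of 10 genes, with a median of -0.36. It was positive for 7 of 9 interneuron genes and 3 of 6 genes of neurons in general. None of these passed. Summed levels in the P5 CG against the P5 SSS were 9359.8 to 11599 against 6894 to 8558 CPM for radial glia genes, 839.7 to 1488 against 594 to 1275 CPM for genes of proliferating cells and 1159 to 1592 against 817 to 1411 CPM for astrocyte genes. They were 220.4 to 323 against 192 to 496 CPM for oligodendrocyte precursor genes and 72.0 to 150.5 against 85.2 to 203 CPM for myelin genes. For genes of intermediate progenitors and newborn excitatory neurons they were 1005 to 1642 against 1108 to 1917 CPM. Their part in the P5 differences of the members was not tested.

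**Figure D3:**
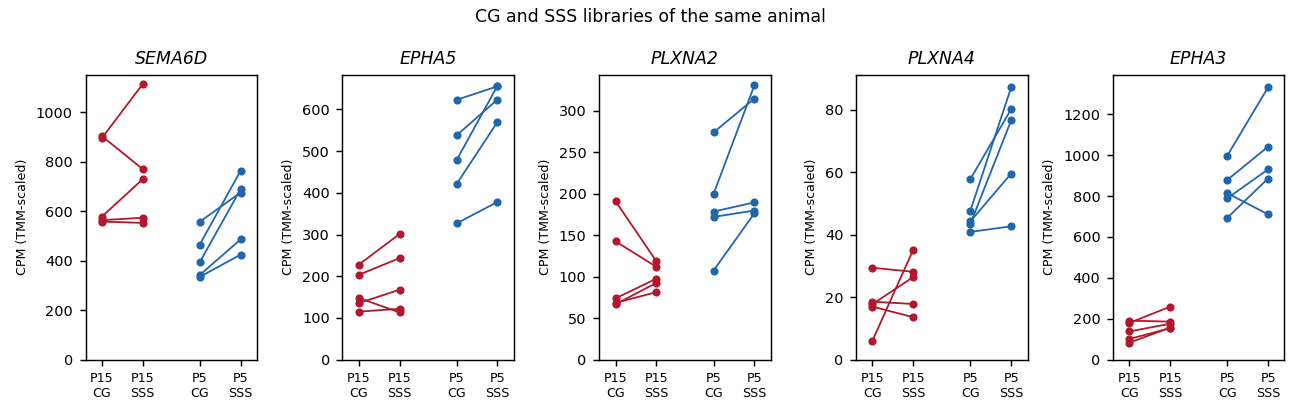
Level in TMM-scaled CPM (y axis, linear, from 0) of the 4 members lower in the CG in all P5 animals, and of *EPHA3*. Lines join the CG and SSS libraries of an animal (x axis) at P15 (red) and P5 (blue). *SEMA6D* had 418 ± 93.4 CPM in the P5 CG and 607 ± 145 CPM in the P5 SSS, with lines rising to the SSS in 5 of 5 animals, against 3 of 5 at P15.

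At P15 *EPHA3* had the lowest p. The CG had the lower value in 4 of 5 animals, with 138 ± 47.2 CPM in the P15 CG and 186 ± 42.9 CPM in the P15 SSS (log2 fold change -0.47, SE 0.1254, FDR = 0.823). At P5 the CG was also lower in 4 of 5 kits (log2 fold change -0.21, SE 0.121, FDR = 0.691). *PLXDC1* was lower in 4 of 5 P15 animals, with 8.94 ± 4.87 CPM in the CG and 25.2 ± 15.1 CPM in the SSS (log2 fold change -1.36, SE 0.613, FDR = 1.000). Without the P15 SSS library of animal 4, the highest at 48.3 CPM, its value was -0.98. Between the regions at P15 0.0158% of all tested genes passed. Among the marker lists, 1 of 10 genes of intermediate progenitors and newborn excitatory neurons passed as higher in the CG. Only 3 of the 10 had a positive CG over SSS value, and their median was -0.26. Of 9 interneuron genes 1 passed as lower, and 3 had a positive value (median -0.35). Summed levels were 233 to 301 CPM in the P15 CG against 258 to 399 CPM in the P15 SSS for the progenitor list, and 903 to 1223 against 1152 to 1706 CPM for the interneuron list. Their part in the P15 differences was not tested.

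*SEMA4G*, a class 4 semaphorin, came after *PLXDC1* by p at P15, with 0, 0, 1.4, 0 and 0.727 CPM in the P15 CG and 0, 5.29, 8.42, 0 and 2.35 CPM in the P15 SSS (log2 fold change -2.83, SE 1.51, FDR = 1.000), from 8 reads in the CG and 54 in the SSS. At P5 it had 0, 1.5, 3.35, 8.41 and 3.48 CPM in the CG and 0, 3.09, 7.85, 1.81 and 3.91 CPM in the SSS, which overlapped. At P15 1 member of 37 (2.7%) differed in 1 direction in all animals, against 7.03% of all genes. This was *EPHB2*, higher in the CG in 5 of 5 animals, with 13.2 ± 6.31 CPM in the CG and 9.09 ± 4.31 CPM in the SSS (log2 fold change 0.56, SE 0.484, FDR = 1.000, edgeR).

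**Figure D4:**
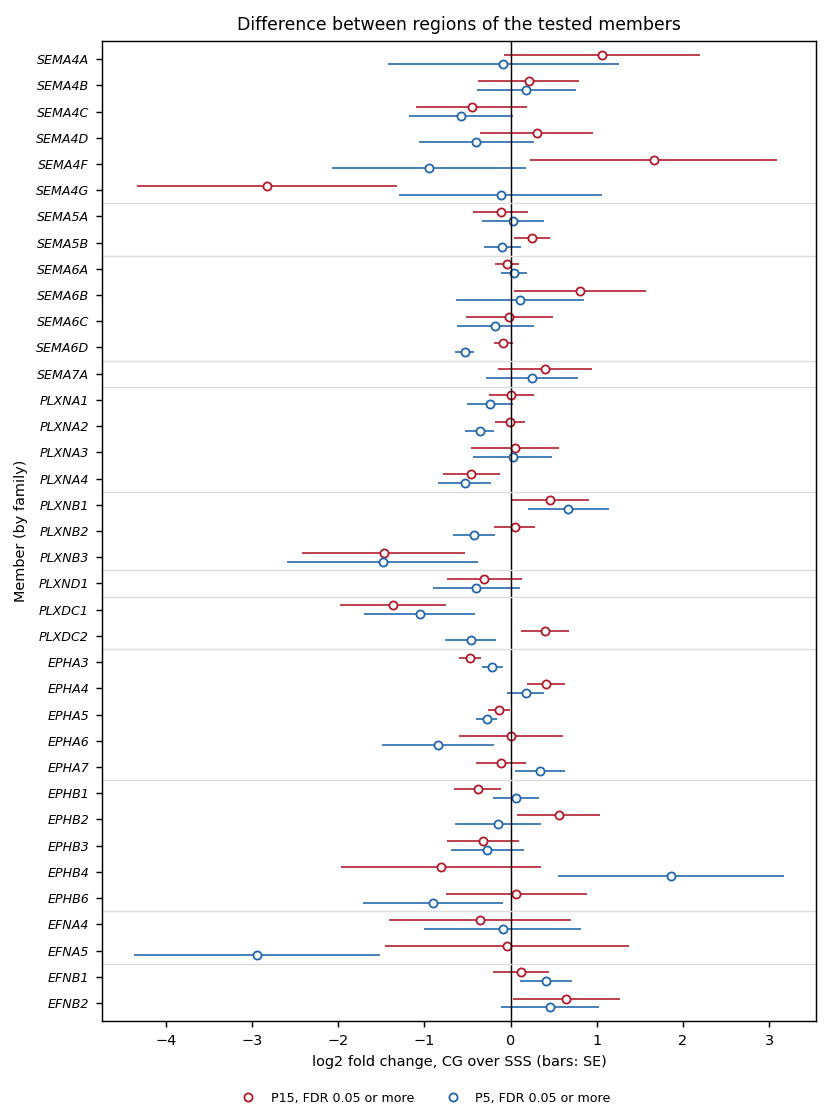
Log2 fold change of CG over SSS (x axis, points, with SE as bars) of the 37 tested members, listed by family on the y axis, at P15 (red) and P5 (blue). All points are open, since none has an FDR under 0.05, and 24 of the 37 P5 points lie left of 0, the shortest bar among them being that of *SEMA6D*.

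The last question was whether the difference between the regions itself changed with age. No member passed, and 0% of all genes did. At an unadjusted p under 0.05 there were 2 of 37 members (5.41%), against 3.85% of all genes, and DESeq2, limma-voom and the newer quasi-likelihood called none. *SEMA6D* had a difference of 0.44 on the log2 scale between P15 and P5 (SE 0.156, FDR = 0.998, edgeR). *PLXDC2* had 0.86 (SE 0.405, FDR = 0.998), with the CG higher in 3 of 5 animals at P15 and in 2 of 5 at P5. Without the P15 SSS library of animal 4 the *PLXDC2* value was 0.56.

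*EPHB4* was next, with 5.27, 1.96, 2.33, 0 and 5.09 CPM in the P15 CG and 3.74, 3.64, 4.62, 10.4 and 2.35 CPM in the P15 SSS. At P5 it had 10.8, 3.9, 4.47, 1.16 and 4.74 CPM in the CG and 6.44, 0.343, 0.476, 7.59 and 0 CPM in the SSS. All 4 groups overlapped, and the difference of -2.67 (SE 1.75, FDR = 0.998, edgeR) rested on 42 to 79 reads per group. Without the P15 SSS library of animal 4 it was -1.89.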

How the data were processed

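RNA of the oSVZ was amplified by SPIA, which adds no molecular identifiers, and sequenced in pairs of reads. Per the labels and methods, the authors used Trimmomatic 0.38 for trimming, STAR 2.7.9a for alignment to the ferret build MusPutFur1.0, and featureCounts with Ensembl release 108 for read counts by gene. They deposited raw counts, with no normalisation. The sources used here do not say whether strand was used, so overlapping genes may share reads.

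The deposited symbols follow the order of the sorted identifiers. Read line by line, 35 ribosomal protein genes had a median of 1.39 CPM, and with each identifier given the symbol at its sorted rank they had 703 CPM, so the second pairing was used.

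Low counts were filtered with filterByExpr (minimum count 10, minimum total 15), and libraries were scaled by TMM and tested with edgeR 4.0.16 in R 4.3.3 (quasi-likelihood F-test of the older kind), with Benjamini-Hochberg adjustment (FDR) over 12,669 genes. Ages were compared in 1 fit of the 4 groups, and regions with the animal as a block, since the library names give both libraries of an animal the same name. Residuals of such pairs correlated with a median of 0.141 (0.0460 to 0.246), against -0.0466 for different animals of an age. Fold changes used a prior count of 0.125. The SE was derived from the test, as the absolute log2 fold change without that prior count divided by the square root of the F statistic. Alternatives were DESeq2 1.42.0, limma 3.58.1 (voom), edgeR's newer quasi-likelihood, other scalings, filters and sample sets. The code was tested on simulated data.

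Members, lists and tests were chosen with earlier results of these data known. Values are given by library for members called in any comparison, for the 3 with the lowest p in each region comparison, and for the member of each family with the most CPM. Of the partner lists, genes with the 3 lowest p in an age comparison are named.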

Additional observations from a re-analysis of the deposited data

Results flagged for a closer look

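The 5 libraries of a group were searched for a single library far from the other 4, in 23 members and 92 groups of libraries. These are the members whose values are given by library. A library was flagged when its gap to the nearest other exceeded 0.71 of the range of the group. The search found 6. For normally distributed values chance alone gives about 1 in 20 groups, and the number found is near that share. *EPHB2* had 96.8 CPM in the P5 SSS library of animal 2, against 13.4 to 33.1 CPM in the other 4, and its call in the SSS was lost without that animal. *EFNA4* had 14.5 CPM in the P5 CG library of animal 3, against 2.7 to 3.79 CPM. *PLXDC1* had 17.4 CPM in the P15 CG library of animal 1, against 5.23 to 7.91 CPM.

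*SEMA4B* had 37.4 CPM in the P15 CG library of animal 4, against 14.4 to 19.7 CPM, and 5.79 CPM in the P5 SSS library of animal 4, against 10.7 to 12.6 CPM. *EPHB4* had 10.4 CPM in the P15 SSS library of animal 4, the library with no read for 1371 tested genes, against 2.35 to 4.62 CPM in the other 4. This last value came from 23 reads and the lower *SEMA4B* value from 16 reads.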

How the results depend on the processing

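Of the 21 age calls of members, 17 passed under all 21 alternatives of their comparison, 4 were lost in some and none turned. Those lost were *SEMA6D* in the CG and *EPHB2*, *EPHA4* and *EPHB3* in the SSS. The number called was 8 to 11 in the CG and 10 to 14 in the SSS when 1 animal was left out, with 8.97% to 14.4% and 10% to 14.6% of all genes called in those fits, and 12 and 11 without the P15 SSS library of animal 4 (15.4% and 14.5% of all genes). With no filter it was 13 in the CG (29.5% of members, against 7.95% of all genes) and 14 in the SSS (31.8%, against 9.21%). That fit tested 22,664 genes, against 12,669 with the filter. Its shares of all genes are thus not comparable with those of the main fit. The number called was 13 and 16 in the CG and the SSS with edgeR's newer quasi-likelihood (35.1% and 43.2%, against 17.4% and 18.5%). No member was called at P15 or in the test between the regions' differences under any alternative run. At P5 1 member, *SEMA6D*, was called with DESeq2 (FDR = 0.00202), the newer quasi-likelihood (0.0351), limma-voom (0.00789) and no filter (0.00252), and leaving out libraries gave 0 to 1. It was called without P15 animal 4 (0.0177) or its SSS library alone (0.0169), and not in the other 15 of 21 alternatives. The cause was not tested.

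Without the animal as a replicate block no member was called between regions, and *SEMA6D* at P5 had an FDR of 0.891 (edgeR). Replicate numbers are shared by the ages but mark different animals. With that number as a replicate block the CG had 10 called members and the SSS 12 (14.9% and 15.8% of all genes). Among the 5 libraries of their region at the other age, 7 of 20 libraries correlated best with their own number. Residuals of libraries that shared a number across the ages correlated with a median of 0.0192 (-0.0914 to 0.142). The filter of 2 CPM in 5 libraries kept 13,750 genes, so one of 5 CPM in 5 libraries was added after the data were seen, and it called 9 and 13 members (14.2% and 15.5% of all genes).

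Depth limits the members with few reads. *EFNA5*, *SEMA4F*, *SEMA4G* and *EPHB4* had 172 to 238 reads over all 20 libraries and SE of 0.986 or more in the age comparisons, and copies of 1 molecule made by amplification could not be removed.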

Other observations

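The 7 members that were not tested had reads in few libraries. *EFNA1*, which encodes a lipid-anchored ligand of A-type Eph receptors, had 27 and 57 reads in the P15 CG and P15 SSS, from 4 and 3 of 5 libraries, against 1 and 8 reads in the P5 CG and P5 SSS, from 1 and 3 libraries. Of the 57 reads in the P15 SSS 33 were from animal 3, which leaves 24 without it. *EPHA2*, an Eph receptor known from epithelia, had 41 and 13 reads in the P15 CG and P15 SSS, from 3 libraries each, against 1 read and none at P5. Animal 2 gave 33 of the 41 reads and animal 1 gave 9 of the 13, which leaves 8 and 4 reads without those libraries. *EPHA1* had 8 reads in 3 P5 CG libraries and none in any other group. *EPHA10*, whose kinase domain is inactive, had 112 reads in 14 of 20 libraries, with 24 and 29 in the P15 CG and P15 SSS, against 12 and 47 in the P5 CG and P5 SSS. Of the 47 reads in the P5 SSS 38 were from animal 2, which leaves 9 without it, and of the 29 in the P15 SSS 19 were from animal 1, which leaves 10. *EPHA8*, *EFNA3* and *EFNB3* had 45, 7 and 44 reads over all libraries.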
